A study of Mus musculus with 18 samples.

Results

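The mRNAs of 4 genes that mark astrocytes, Gldc, Slc4a4, Aldh1l1 and Aqp4, were followed in lists of N4-acetylcytidine (ac4C) peaks from mouse hippocampus. They were chosen by gene name, with earlier results of these data known. All 4 had at least 1 listed peak, among 4922 mRNAs in the lists. Together they carried 32 of the 24703 peaks. The samples were 3 of hippocampus from 5xFAD mice and 3 from wild-type (WT) mice, all aged 3 months. 5xFAD mice carry human APP with the Swedish, Florida and London mutations and human PS1 with M146L and L286V, with APP driven by the murine Thy-1 promoter, which acts in neurons, on a C57BL/6J background. WT mice carry neither transgene. The methods give the sex of the animals in 2 different ways, so it is not stated here. Nothing in the labels says whether a sample was 1 animal or a pool.

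In acRIP-seq, fragmented RNA is pulled down with an antibody against ac4C, an acetyl mark on cytidine that the enzyme NAT10 is known to write, and the fragments are sequenced beside an input and an IgG control. Astrocytes take up transmitters, water and ions around synapses and vessels. Of the 4 genes, Slc4a4 and Aqp4 encode membrane transport proteins, and Gldc and Aldh1l1 encode metabolic enzymes. Gldc encodes glycine decarboxylase of the mitochondrial glycine cleavage system, Slc4a4 an electrogenic sodium bicarbonate cotransporter, Aldh1l1 the cytosolic enzyme that oxidises 10-formyltetrahydrofolate, and Aqp4 the water channel of astrocyte endfeet.

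Each sample has 1 peak list, with 3921, 3734 and 3881 peaks in 5xFAD and 4151, 4558 and 4458 in WT. A peak carries the authors' fold enrichment (FE), the acRIP signal less the IgG signal over the input, and summing these over the peaks of an mRNA gives its FE, taken as 0 where a sample lists none. The lists hold no reads, so the depth is unknown, and an FE of 0 says that no peak was listed. FE is no measure of mRNA amount, and in bulk tissue fewer cells of a type and less RNA per cell cannot be told apart. The sample lists also resemble each other strongly by genotype. Between 2 lists of 1 genotype, 59.5% to 64.5% of the shorter list's peaks had the same start and end to the base, against 5.20% to 6.34% between a 5xFAD and a WT list. The part of this split in the values below was not tested, and p-values measure only the spread between these samples.

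An mRNA was assigned to a genotype if 2 or more of the 3 samples listed a peak on it, which 4493 mRNAs met. Slc4a4 and Aldh1l1 were found in 5xFAD only, Aqp4 in WT only, and Gldc in both. The split over all these mRNAs gives the scale, since 34.6% were in 5xFAD only, 40.4% in WT only and 24.9% in both. An mRNA listed in a single genotype was thus the commonest case in these lists. Summed FE was higher in every 5xFAD sample than in every WT sample for Gldc and Slc4a4, an order seen in 34.1% of the 4493 mRNAs. The opposite order held for Aqp4 and for 41.4% of them. Aldh1l1 overlapped, because 1 5xFAD sample had no peak.

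**Figure D1:**
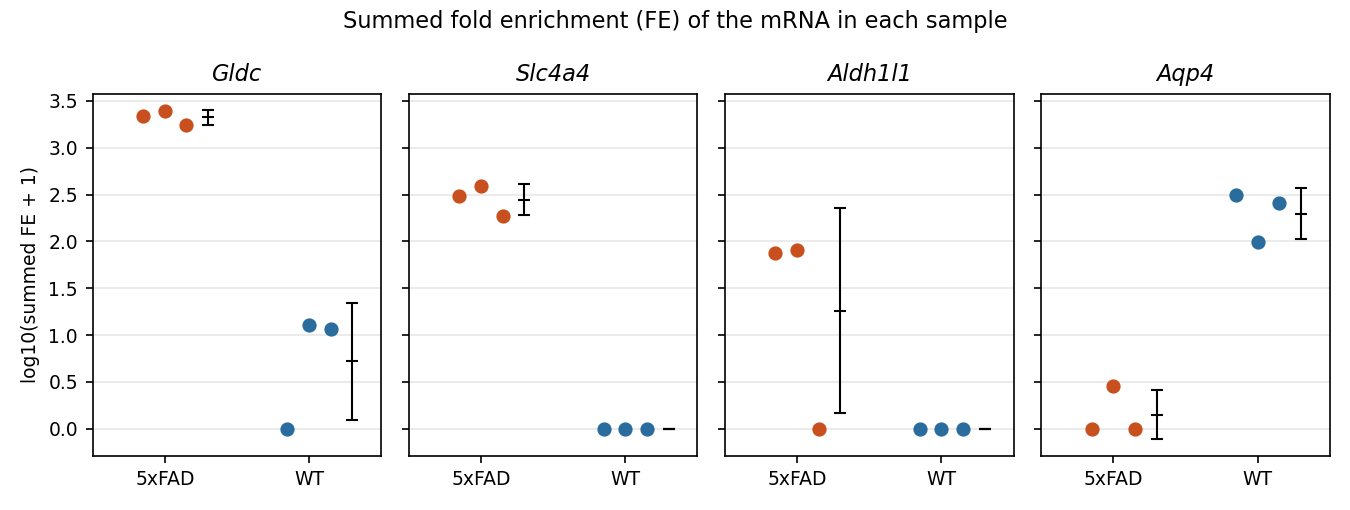
Summed FE of each mRNA on the log10(FE + 1) scale in the 3 samples of 5xFAD (orange, left) and of WT (blue, right), with the mean and SD of the plotted values as black bars. Gldc and Slc4a4 lie high in all 3 5xFAD samples and Aqp4 in all 3 WT samples, while 1 5xFAD sample of Aldh1l1 lies at 0.

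Gldc had the highest values of the 4. Its summed FE was 2162.41, 2490.84 and 1731.96 in the 5xFAD samples, against 0, 11.71 and 10.52 in the WT samples. The lowest 5xFAD value lay far above the highest WT value. The means were 2128 ± 381 in 5xFAD and 7.41 ± 6.44 in WT (SD, n = 3 each), with a two-sided exact permutation p of 0.1, the smallest that 3 against 3 samples allow. In the limma fit of log2(FE + 1) over the 1121 mRNAs present in both genotypes, Gldc was higher in 5xFAD by 8.64 log2 units (SE 1.08, Benjamini-Hochberg adjusted p = 0.00143). In that fit 20.8% of mRNAs were called higher and 32.3% lower, with thresholds of 0.05 on the adjusted p and 2 on the fold change, and the median log2 fold change was -0.47. Gldc held place 3 by log2 fold change. Without WT replicate 2, or without WT replicate 3, a single WT sample lists Gldc, and it then counts as 5xFAD only and leaves the fit.

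Gldc lies on the minus strand of chr19 (NM_138595, 25 exons), and all of its peaks fell into 2 short stretches of coding sequence with exon 9 between them. One stretch was the last 49 nt of exon 8 (chr19:30143360-30143408), and the other the first 29 nt of exon 10 (chr19:30137204-30137232). Both had the same ends in all 5 lists that held them, the 3 of 5xFAD and WT replicates 2 and 3. In the authors' peak numbering, 1 unlisted number lay between the 2 stretches in each 5xFAD list. In the 2 WT lists 0 did. Where the unlisted peak lay is not given. The spliced run is shown 5′ to 3′ on the mRNA strand (GRCm38.p6, RefSeq), with the listed bases in capitals and the 106 nt of exon 9 (chr19:30139275-30139380), listed in no sample, in lower case, because the position was shared by the genotypes while the FE was not.
Gldc exons 8 to 10: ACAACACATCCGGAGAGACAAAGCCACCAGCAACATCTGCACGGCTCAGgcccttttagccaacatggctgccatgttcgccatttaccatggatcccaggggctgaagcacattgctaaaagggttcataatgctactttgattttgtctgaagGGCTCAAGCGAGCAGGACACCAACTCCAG

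On exon 8 the FE was 1049.08, 1146.61 and 891.95 in 5xFAD, against 5.6 and 4.86 in WT replicates 2 and 3. On exon 10 it was 1113.33, 1344.23 and 840.01 in 5xFAD, against 6.11 and 5.66 in the same 2 WT samples. Over the samples with a peak, the 5xFAD mean was 197 times the WT mean on exon 8 and 187 times on exon 10. The FE of the exon 10 stretch over that of the exon 8 stretch was 1.06, 1.17 and 0.94 in 5xFAD and 1.09 and 1.16 in WT, so the balance between the stretches overlapped between genotypes. The peak score, a multiple of the −log10 of the peak caller's p-value, was 3100 for all 6 Gldc peaks of 5xFAD and 168.5 to 241.17 for the 4 of WT. The WT peaks had an FDR of 100%. A score of 3100 was shared by 55.2% of all listed peaks.

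Slc4a4 carried peaks in 5xFAD alone. Its summed FE was 301.39, 390.49 and 183.67 in the 5xFAD samples, against 0 in each WT sample. All 3 5xFAD samples were high, and no WT list named the gene. The 5xFAD mean was 292 ± 104 (SD, n = 3), and the exact permutation p of 0.1 was again the smallest possible. No fold is given, since WT is listed at 0.

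The Slc4a4 transcript (NM_018760, plus strand of chr5, 26 exons) had 4 peak positions, all coding. They were the last 92 nt of exon 3 (chr5:88954866-88954957), the first 28 nt of exon 5 (chr5:89038451-89038478), the whole of exon 16 (192 nt, chr5:89179653-89179844) and the whole of exon 18 (162 nt, chr5:89199655-89199816). The first pair enclosed exon 4 (136 nt), and the second pair exon 17, neither of which was listed. The run from exon 3 to exon 5 follows, with listed bases in capitals, because it holds the position of highest FE.
Slc4a4 exons 3 to 5: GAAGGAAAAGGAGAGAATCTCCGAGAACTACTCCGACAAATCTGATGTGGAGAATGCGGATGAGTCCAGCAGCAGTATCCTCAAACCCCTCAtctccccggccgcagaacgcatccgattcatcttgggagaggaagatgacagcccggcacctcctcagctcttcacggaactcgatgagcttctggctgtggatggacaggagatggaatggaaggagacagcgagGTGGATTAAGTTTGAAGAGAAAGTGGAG

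The exon 5 stretch had an FE of 112.9, 178.95 and 118.81 in the 5xFAD samples, the highest of the 4 positions in each. Its 28 nt contain 0 cytidines on the mRNA strand, as the capitals at the end of the run show. Among 11794 distinct listed peaks of at least 20 nt inside 1 exon, 5 had none, this one included (0.0424%). Most of those peaks are longer than this stretch. At matched length, 40 of 11463 windows of 28 nt at the centre of peaks had none (0.349%). The labels give RNA fragments of about 200 nt, longer than this stretch. Exon 3 had an FE of 91.43 and 104.62 in 5xFAD replicates 1 and 2 and no peak in replicate 3. Exon 18 had 83.51, 88.55 and 51.08 and exon 16 had 13.55, 18.37 and 13.78. The order of FE was therefore exon 5, exon 3, exon 18 and exon 16 wherever each was listed. Exon 16 gave 4.50% to 7.50% of the summed FE of a sample.

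Aldh1l1 had a peak in 2 of the 3 5xFAD samples. Its summed FE was 73.6, 80.09 and 0 in the 5xFAD samples, against 0 in each WT sample. One 5xFAD sample thus had no peak, like each WT sample. The mean was 51.2 ± 44.5 in 5xFAD (SD, n = 3), and the exact permutation p was 0.4. Without 5xFAD replicate 1, or without replicate 2, it is listed in 1 sample and counts for no genotype.

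The single Aldh1l1 position was the last 47 nt of exon 20 of 23 (NM_027406, plus strand, chr6:90594602-90594648). It lay 84.9% of the way into the coding sequence, against 36.4% and 41.5% for the starts of the 2 Gldc stretches. Exon 20 (chr6:90594483-90594648) is shown whole, with the listed bases in capitals, since the peak began inside the exon and ended at its 3′ end.
Aldh1l1 exon 20: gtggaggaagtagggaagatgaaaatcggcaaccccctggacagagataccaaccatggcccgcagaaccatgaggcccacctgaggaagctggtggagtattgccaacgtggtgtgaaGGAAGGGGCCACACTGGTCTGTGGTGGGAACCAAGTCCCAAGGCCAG

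Aqp4 ran the other way. Its summed FE was 0, 1.84 and 0 in the 5xFAD samples, against 309.5, 96.51 and 257.52 in the WT samples. Every WT value was above every 5xFAD value. The means were 0.613 ± 1.06 in 5xFAD and 221 ± 111 in WT (SD, n = 3 each), with an exact permutation p of 0.1. The lone 5xFAD peak had a score of 52.2 and an FDR of 100%, and Aqp4 stood at place 2570 of the 2575 mRNAs in that list.

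Aqp4 was also the only one of the 4 with a peak outside the coding sequence. On its transcript (NM_009700, minus strand of chr18, 5 exons) the first position was the last 26 nt of exon 4 (chr18:15397579-15397604), with an FE of 1.84 in 5xFAD replicate 2, against 213.62 and 182.61 in WT replicates 1 and 3. WT replicate 2, the WT sample of lowest summed FE, did not list it. The second position, 205 nt of exon 5 (chr18:15393487-15393691), had an FE of 64.52, 69.01 and 47.13 in WT and was not listed in 5xFAD. The authors annotate it to the stop codon, although it ends at nt 1063 of the transcript and the coding sequence of the RefSeq model ends at nt 1099. The third, 369 nt of the 3′ UTR (chr18:15391521-15391889), had 31.36, 27.5 and 27.78 in WT and was not listed in 5xFAD. FE thus decreased from the coding to the 3′ UTR position in each WT sample that listed all 3.

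**Figure D2:**
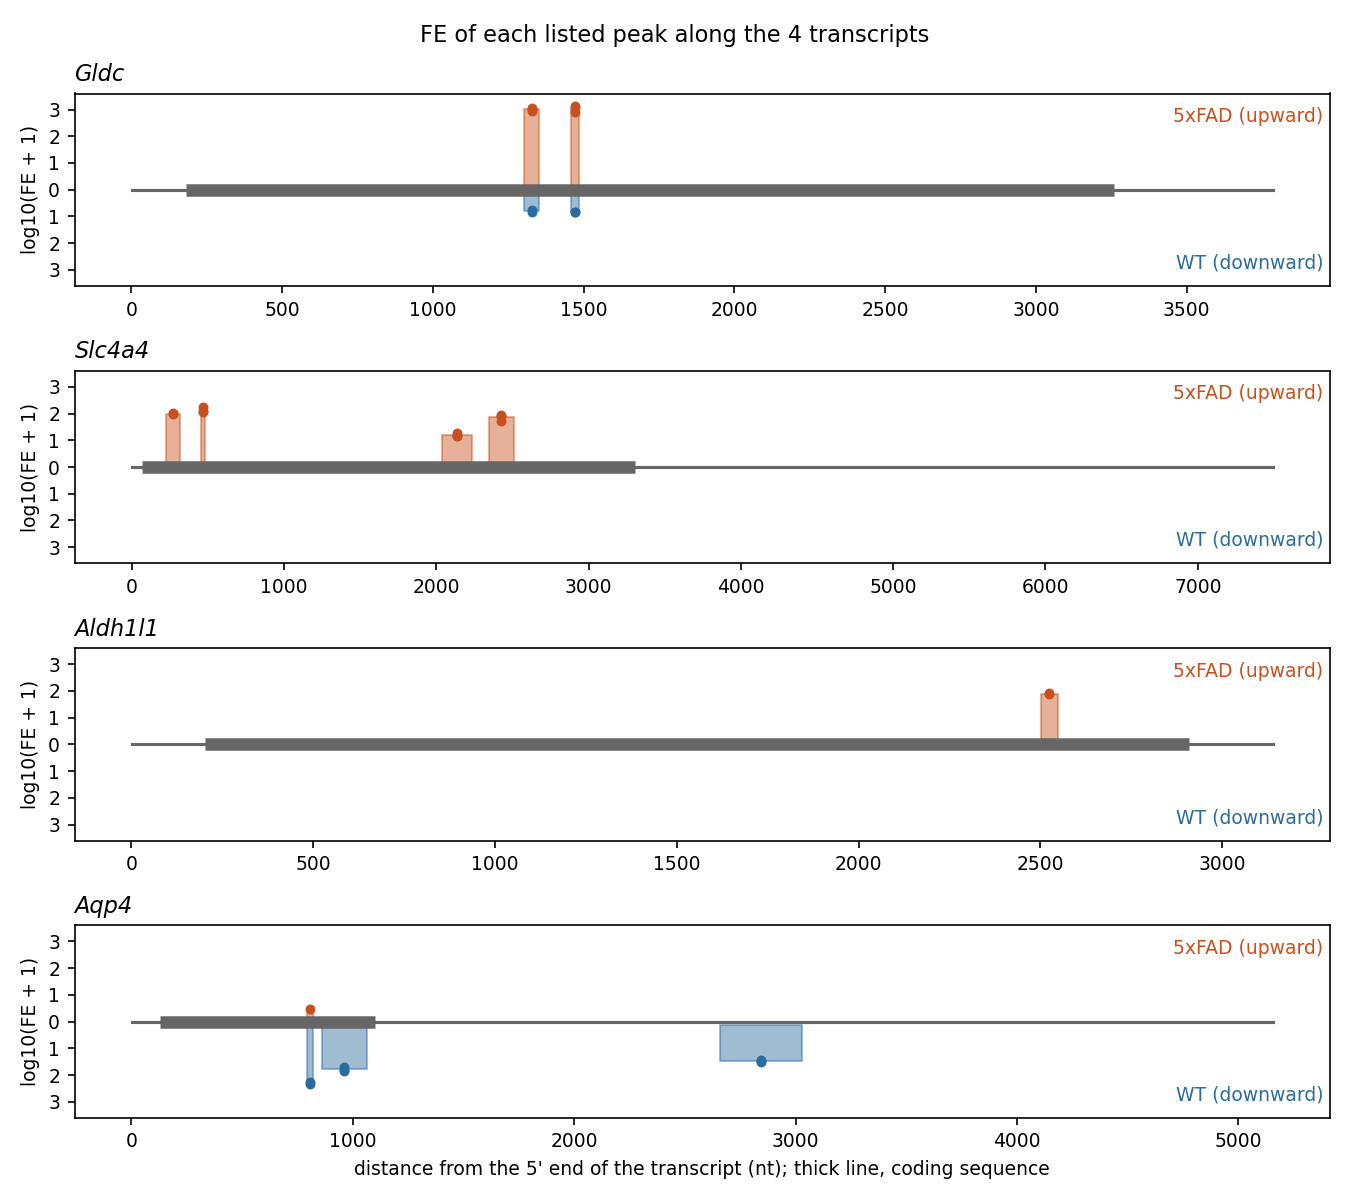
FE of each listed peak on the log10(FE + 1) scale against the distance in nt from the 5′ end of the transcript, with 5xFAD drawn upward (orange) and WT downward (blue), dots for samples, boxes for the mean over samples with a peak, and a thick line for the coding sequence. The 2 Gldc positions are shared by the genotypes, the 4 of Slc4a4 and 1 of Aldh1l1 are in 5xFAD alone, and Aqp4 has 3 WT positions, 1 of which 5xFAD replicate 2 also lists.

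Merged over samples, the 4 mRNAs had 10 peak regions. With 2 or more samples of a genotype required, 5 were in 5xFAD only, 3 in WT only and 2, both on Gldc, in both genotypes. Every region lay inside 1 exon, and 8 had at least 1 end exactly on an exon end. This was common in the lists, as 74.6% of the peaks inside 1 exon had such an end and 23.1% had both, like exons 16 and 18 of Slc4a4. A single unlisted exon between neighbouring peaks was less usual, at 12.1% of 6904 neighbouring pairs against 43.8% on adjoining exons, and was found on Gldc and in both pairs of Slc4a4.

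Sequence was read for the coding stretches of Gldc, Slc4a4 and Aldh1l1 and not for those of Aqp4, and their cytidine content varied. Cytidine made up 34.7% and 34.5% of the 2 Gldc stretches, 25.5% of that of Aldh1l1 and 23.9%, 0%, 24.0% and 25.9% of the Slc4a4 positions on exons 3, 5, 16 and 18. Over 11794 distinct peaks the median was 26.3%, with quartiles of 21.8% and 30.8%. Both Gldc stretches were above the upper quartile, which was not matched to their length. The repeat CNNCNNCNN, searched on the mRNA strand alone and with overlapping matches counted, occurred 4 times in the exon 8 stretch and 2 times in the exon 10 stretch of Gldc. Windows of the same length, taken at the centre of the 10515 and 11419 distinct peaks inside 1 exon that were at least that long, held it in 52.2% and 33.7% of cases. It occurred 3, 0, 1 and 2 times on exons 3, 5, 16 and 18 of Slc4a4, where 73.1%, 32.7%, 89.4% and 86.4% of such windows held it. The Aldh1l1 stretch held 0, against 50.9% of windows. A match is a description of letters and not of a modified base.

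Translation is known to be affected by ac4C at the wobble base of codons, so the third codon position was counted. In the exon 8 stretch of Gldc, 9 of 16 whole codons ended in C (56.2%), against 34.3% over its coding sequence. In the exon 10 stretch it was 3 of 9. In Slc4a4 the count was 13 of 30, 0 of 9, 23 of 64 and 15 of 54 codons on exons 3, 5, 16 and 18, against 31.1% over the coding sequence. In Aldh1l1 it was 4 of 15, against 32.8%.

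Rank within each list placed the 4 mRNAs at different levels. Gldc was at place 8 of 2660, 4 of 2575 and 13 of 2654 mRNAs by summed FE in 5xFAD, against 2247 of 2938 and 2270 of 2882 in WT replicates 2 and 3. It stood near the top of the 5xFAD lists and in the lower part of the WT lists. Slc4a4 was at places 282, 214 and 458 in 5xFAD, and Aldh1l1 at 839 and 822 in the 2 samples that listed it. Aqp4 was at places 321 of 2750, 951 of 2938 and 452 of 2882 in WT.

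**Figure D3:**
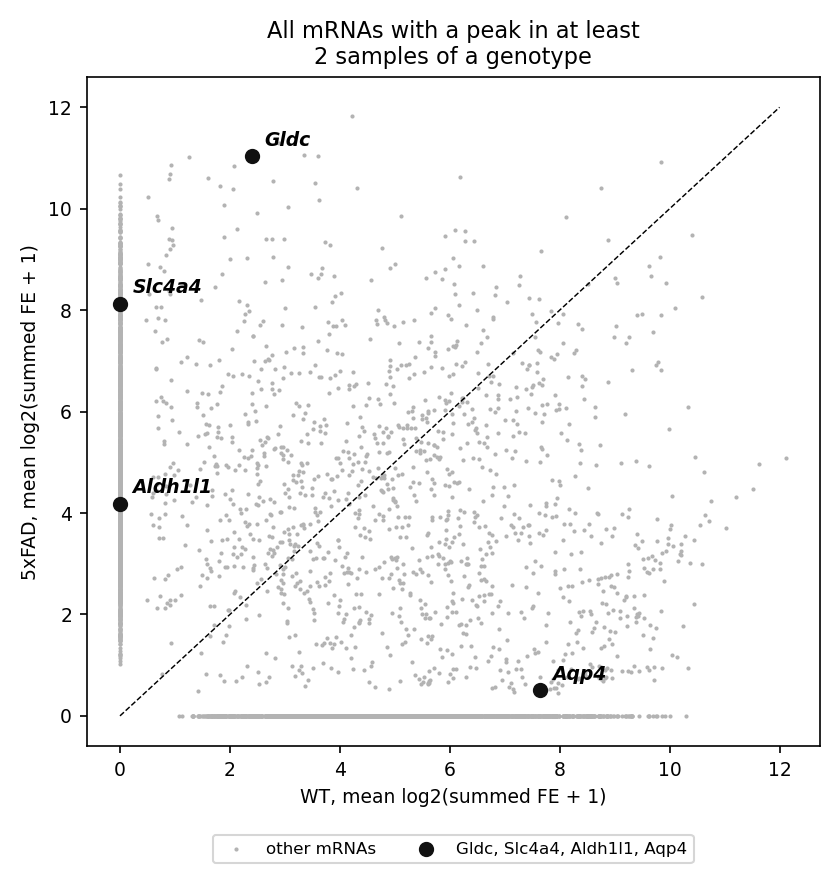
Mean log2(summed FE + 1) in 5xFAD (vertical axis) against WT (horizontal axis) for 4493 mRNAs in grey, with the 4 astrocyte mRNAs in black and a dashed line of equal values. Gldc lies near the upper edge at 11.04 in 5xFAD and 2.40 in WT, Slc4a4 and Aldh1l1 lie on the axis of WT values of 0, and Aqp4 lies at 0.50 in 5xFAD and 7.63 in WT.

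The mRNAs whose pattern over the 6 samples was most like each member were found by Euclidean distance of log2(FE + 1) among the 4493 mRNAs. For Gldc they were S100a11, Morc1 and S100a10, at distances of 2.03, 3.47 and 3.58. S100a11 had an FE of 884.9, 1067.23 and 958.82 in 5xFAD, against 0, 10.44 and 14.71 in WT. Its missing WT replicate 1 was the one that Gldc lacked. For Slc4a4 the nearest were Zfp74, Trmt12 and Sbds (0.39, 0.43 and 0.51), and for Aldh1l1 they were Pcdhgc5, Sall2 and D2hgdh (0.19, 0.23 and 0.35). For Aqp4 they were Ppil2, Lin7b and Pag1 (0.80, 1.21 and 1.45). Ppil2 had an FE of 0, 2.71 and 0 in 5xFAD, against 215.78, 70.93 and 289.1 in WT. The nearest mRNAs of the 3 genes in a single genotype lay closer than those of Gldc.

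The 4 genes were then set beside other astrocyte markers. Of a list of 50, 26, the 4 genes included, met the rule of 2 samples in either genotype (52%). The share was 19.3% of 21900 protein-coding genes, counted whether expressed in hippocampus or not. It was 69.0% of a list of neuron markers and 20.8% of one of microglia markers, so 52% is not read as a trait of astrocyte genes. Of the 22 besides Gldc, Slc4a4, Aldh1l1 and Aqp4, 4 were in 5xFAD only, 6 in WT only and 12 in both. Over all 4493 mRNAs the shares were 34.6%, 40.4% and 24.9%, which also apply to the class counts of the lists below. Of those 12, 1 was called higher in 5xFAD by limma and 4 lower, where the shares over all 1121 mRNAs were 20.8% and 32.3%. The median log2 fold change of the 13 overlay markers, Gldc included, was 0.12, against -0.47 over all 1121. Astrocyte markers thus stood on both sides, as did all mRNAs, but a larger share of the 22 was in both genotypes. Neuron markers had 10 of 20 in both. Sox9, a transcription factor of astrocytes, and Gjb6, a gap junction protein, had no listed peak.

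Gfap, the intermediate filament of astrocytes, was lower in 5xFAD. Its summed FE was 9.16, 18.63 and 14.71 in 5xFAD, against 53.09, 71.39 and 56.98 in WT. The groups did not overlap, and the log2 fold change was -2.06 (SE 0.319, limma adjusted p = 0.0034). Other astrocyte markers differed in direction and size. Cbs, cystathionine beta-synthase, was in WT only, at 0 in each 5xFAD sample, against 432.83, 369.55 and 374.05 in WT. Tril, a receptor accessory protein, had 39.14, 50.06 and 130.73 in 5xFAD, against 760.75, 3.82 and 879.95 in WT, and did not pass the test (log2 fold change -1.19, SE 2.22, limma adjusted p = 0.68).

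**Figure D4:**
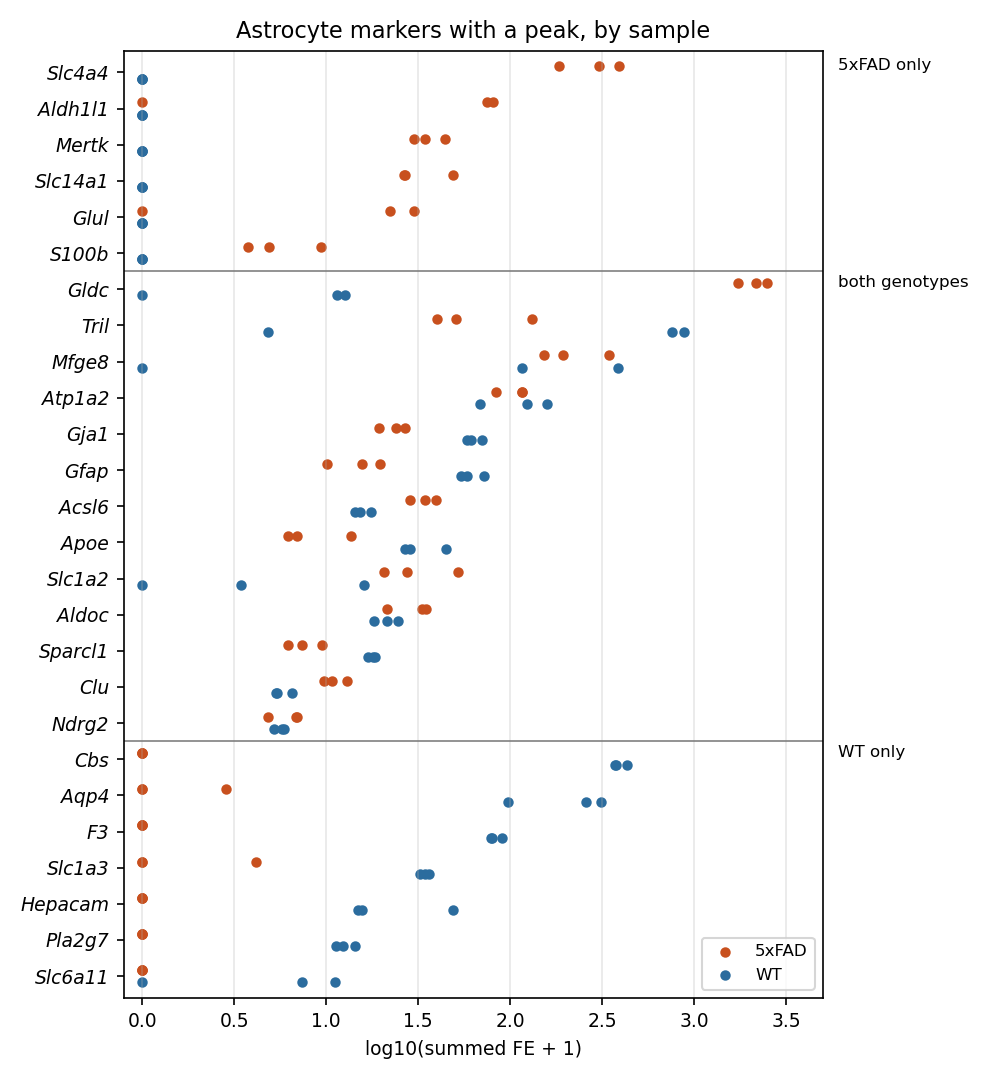
Summed FE on the log10(FE + 1) scale of the 26 astrocyte markers that 2 or more samples of either genotype listed, one point per sample, 5xFAD in orange above WT in blue, grouped by the genotype that listed them. Gldc has the highest values, 6 genes are in 5xFAD only, 13 in both and 7 in WT only.

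A list of 26 water channels and genes of the endfoot complex, Aqp4 included, had 11 that met the rule of 2 samples, with 3 in 5xFAD only, 4, Aqp4 among them, in WT only and 4 in both. Of the 4 in both, 2 were called higher and 1 lower in 5xFAD, against 20.8% and 32.3% over all mRNAs in the fit. Lama2, a laminin chain of the basement membrane, had 532.48, 630.18 and 569.38 in 5xFAD, against 223.6, 233.49 and 157.71 in WT (log2 fold change 1.51, SE 0.241, limma adjusted p = 0.0038). Utrn, the dystrophin relative utrophin, was higher by 1.39 log2 units (SE 0.293, limma adjusted p = 0.0106). Dtnb, a dystrobrevin, was in 5xFAD only, at 0, 328.39 and 153.94 in the 3 samples, and 0 in each WT sample. Aqp4 had the highest mean of the 4 genes in WT only.

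A list of 37 genes of bicarbonate and proton transport, with Slc4a4 itself, carbonic anhydrases and regulators of transporters, had 15 that met the rule of 2 samples. Of these, 6 were in 5xFAD only, 5 in WT only and 4 in both. Of the 4 in both, 1 was called higher and 2 lower, against 20.8% and 32.3% over all mRNAs in the fit. The 1 higher was Wnk1, a kinase that regulates ion transporters, and Ahcyl2, a protein of the family that regulates bicarbonate transporters, was lower beside Slc4a3. Wnk1 and Ahcyl2 were named after their values were seen. Slc9a8, a sodium-proton exchanger, was in 5xFAD only at 586.93, 93.01 and 449, against 0 in each WT sample. Slc4a3, an anion exchanger, was lower at 46.34, 38.15 and 31.99 in 5xFAD, against 232.97, 245.53 and 140.97 in WT (log2 fold change -2.36, SE 0.311, limma adjusted p = 0.00182). Slc4a8, a sodium-driven bicarbonate transporter, had 3.1, 0 and 269.69 in 5xFAD, against 400.93, 869.2 and 814.11 in WT, and did not pass the test (limma adjusted p = 0.0649). Slc4a3, of the same family as Slc4a4, thus stood on the other side, but the family was split. Slc4a10 and Slc4a7 were in 5xFAD only, like Slc4a4, while Slc4a2 and Slc4a5 were in WT only. Slc4a10, Slc4a7, Slc4a2 and Slc4a5 were named after their values were seen.

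Of a list of 28 folate one-carbon genes, Aldh1l1 included, 5 met the rule of 2 samples (17.9%). Of these 2 were in 5xFAD only, 1 in WT only and 2 in both, and limma called 0 in either direction, with 0 at an unadjusted p under 0.05. Qdpr, dihydropteridine reductase, was in 5xFAD only at 37.6, 62.32 and 65.44, against 0 in each WT sample. Shmt2, the mitochondrial serine hydroxymethyltransferase, had 3.58, 5.72 and 3.93 in 5xFAD, against 0, 334.83 and 892.65 in WT (limma adjusted p = 0.302). One WT sample of Shmt2 was at 0 and the others lay far above 5xFAD.

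Of a list of 31 glycine and serine genes, Gldc included, 9 met the rule of 2 samples, with 2 in 5xFAD only, 3 in WT only and 4 in both. Gldc was the 1 called higher, and 1 was called lower, against 20.8% and 32.3% over all mRNAs in the fit. The other proteins of the glycine cleavage system, Amt, Gcsh and Dld, had no listed peak. Phgdh, which opens serine synthesis, was in 5xFAD only at 669.9, 626.83 and 625.88, against 0 in each WT sample. Slc6a9, the glycine transporter GlyT1, was in WT only, at 0 in each 5xFAD sample, against 445.94, 504.15 and 386.14 in WT. The groups did not overlap for Gldc, Phgdh or Slc6a9, and they stood in opposite directions.

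Of a list of 38 genes of reactive astrocytes, 8 met the rule of 2 samples, with 2 in 5xFAD only, 2 in WT only and 4 in both. Of the 4 in both, 1 was called higher and 3 lower, against 20.8% and 32.3% over all mRNAs in the fit. S100a10 had 1254.88, 1280.21 and 2120.54 in 5xFAD, against 7.35, 6.25 and 4.42 in WT (limma adjusted p = 3.35e-05). Hspb1, a small heat shock protein, had 0, 8.04 and 5.56 in 5xFAD, against 671.34, 726.68 and 666.23 in WT (limma adjusted p = 0.00122). S100a10 and Hspb1 thus differed in opposite directions, without overlap for either.

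Markers of other hippocampal cells were read the same way. The rule of 2 samples was met by 20 of 29 neuron markers, 8 of 20 hippocampal neuron markers, 5 of 24 microglia markers, 10 of 24 oligodendrocyte markers and 9 of 24 endothelial and mural markers. The share over all protein-coding genes was 19.3%. Summed FE over a list was lower in every 5xFAD sample for neuron markers (331 to 706 in 5xFAD, 985 to 1240 in WT), microglia markers (6.43 to 11.4 in 5xFAD, 378 to 1211 in WT) and oligodendrocyte markers (262 to 609 in 5xFAD, 967 to 1131 in WT). Hippocampal neuron markers had 49.6 to 126 in 5xFAD and 247 to 386 in WT. For single mRNAs, every WT sample was above every 5xFAD sample in 41.4% of the 4493, and no such share was computed for list sums. Endothelial and mural markers overlapped, with 316 to 373 in 5xFAD and 172 to 461 in WT. The whole astrocyte list had 2626 to 3525 in 5xFAD and 1188 to 2290 in WT, the other order, with 1732 to 2491 of the 5xFAD sums from Gldc. Without the 4 genes it had 562 to 710 in 5xFAD and 1080 to 1981 in WT. Single genes carried much of this, such as Tmem119 of microglia, with 4.18, 8.04 and 0 in 5xFAD, against 919.76, 287.06 and 1139.48 in WT (limma adjusted p = 0.00194). Microglia markers such as P2ry12, Csf1r and Aif1, the dentate marker Prox1 and the oligodendrocyte marker Mog had no listed peak. The part of cell makeup in the values of the 4 genes was not tested.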

How the data were processed

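The authors fragmented hippocampal RNA, enriched it with an anti-ac4C antibody or IgG and sequenced it with its input. Per the labels, tools were FastQC, cutadapt 1.9.3 and HISAT2 2.04 on mm10; peaks were called with MACS on acRIP against input. The fold enrichment ratio, the score and the FDR percent of each peak are the authors' deposited values. The lowest deposited FDR was 20.15 percent, above the methods' stated threshold, and all listed peaks were used. The 6 acRIP lists were analysed; 12 input and IgG libraries were not analysed here. Date-altered cells were decoded. Summed FE was compared by two-sided exact permutation tests and, for mRNAs of both genotypes, by limma 3.58.1 in R 4.3.3 on log2(FE + 1). The fit was run on simulated data in which every mRNA had the same spread and no sample lacked a peak. That run did not cover mRNAs that a sample lacks, such as Gldc. Python 3.11.15, SciPy 1.17.1 and pysam 0.24.0 were used, with RefSeq models of GRCm38.p6, whose coordinates equal mm10. Members and gene lists were chosen with earlier results of these data known. Named list genes were up to 4 per list with the highest mean FE in the higher genotype, with Gfap and the 3 nearest mRNAs of each member; genes named for having no peak, and the glycine cleavage proteins, were chosen after seeing the values. Alternatives were stricter peaks, each replicate left out, other summaries of FE, pseudocounts, scaling, fits and overlap rules.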

Additional observations from a re-analysis of the deposited data

How the results depend on the processing

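The differences in summed FE of Gldc and Aqp4 kept their direction under each of the 10 alternatives run for the 4 genes. These were stricter peaks with an FE of at least 5, the highest or mean FE of the peaks, scaling to the median peak, and each replicate left out. For Gldc and Aqp4 the groups did not overlap, so leaving out a replicate could not have reversed them. Nor could stricter peaks, which removed peaks of the lower group alone. The differences of Slc4a4 and Aldh1l1 could not have reversed under any alternative, since every WT sample was at 0. No exact p could fall below 0.1, the smallest that 3 against 3 samples allow. The log2 fold change of Gldc stayed called in the 14 alternatives that could be fitted, between 7.01 with a pseudocount of 10 and 9.82 with one of 0.1, with adjusted p between 3.05e-05 and 0.0131. It could not be fitted without WT replicate 2, without WT replicate 3 or with a peak required in all 3 samples, since too few WT samples list it.

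The calls over mRNAs of both genotypes, 233 higher and 362 lower, moved to 1453 and 1780 in 1 fit over all 4493 mRNAs, which adds those of a single genotype, and were 172 and 261 with stricter peaks. With the replicate number as a block they were 206 and 331. Deviations from the genotype means correlated at -0.00038, -0.0077 and -0.035 between same-numbered samples of the 2 genotypes. With 3 samples per genotype, this cannot tell whether same-numbered samples share a batch or litter. Left-out replicates gave 188 to 231 higher and 301 to 382 lower. A peak in all 3 samples left 728 mRNAs in both genotypes, in place of 1121.

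By class, the number of the 4 genes in both genotypes became 0 with a peak in all 3 samples and 2 with a peak in at least 1, where WT only became 0. Left-out replicates gave 1 to 3 in 5xFAD only and 0 to 1 in both. Of the 10 regions, stricter peaks left 1 in both; left-out replicates gave 3 to 7 in 5xFAD only and 0 to 2 in both. Identical ends split the Aqp4 region of exon 5, which gave 11 regions, 1 of them in a single sample; neither this nor a reciprocal overlap of 50% changed the counts of 5 in 5xFAD only, 3 in WT only and 2 in both. The lists hold no depth, so what it limits is unknown.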
